A study of Saccharomyces cerevisiae with 6 samples.

Results

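The genes described here encode enzymes of the tricarboxylic acid (TCA) cycle of budding yeast mitochondria: CIT1, ACO1, IDH1, IDH2, KGD1, KGD2, LSC1, LSC2, FUM1 and MDH1. They were taken by name from the array's annotation, in the order of the cycle and without succinate dehydrogenase, and they make up 10 of the 5449 genes tested. Messenger RNA was measured on Affymetrix arrays in 3 samples of a strain lacking BAS1, which encodes a Myb-family activator of purine and histidine synthesis genes, and in 3 samples of the reference strain FY4, a prototrophic laboratory strain. Both strains grew exponentially at 30 °C in minimal medium with glucose and were harvested at the same density, per the labels. The sources used here state neither how or in which parent BAS1 was deleted nor whether replicates were separate cultures, and the p-values therefore describe spread among samples that may be technical. Values are log2 of the deposited probe set intensities, and every difference is deletion minus wild type. Levels of different probe sets are not compared, because probe sets differ in brightness for reasons other than RNA amount.

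The TCA cycle oxidises acetyl units to carbon dioxide and passes the electrons to the respiratory chain. In yeast growing on glucose, respiration is repressed, and the cycle mainly supplies precursors. Its first steps, from citrate to 2-oxoglutarate, lead to glutamate, and the later steps lead back to oxaloacetate. The Hap2/3/4/5 complex is the known activator of many respiratory genes, and Rtg1 and Rtg3 are known to control CIT1, ACO1, IDH1 and IDH2 when respiration is impaired.

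BAS1 itself averaged 4.83 ± 0.058 in the deletion arrays and 11.09 ± 0.12 in the wild-type arrays (SD, n = 3 each), and it was at least 31.9-fold lower, since its deletion values lay under background. Background was taken from probe sets that match no S. cerevisiae gene of the reference table, as their 95th percentile. All 10 TCA genes were above it in all 6 arrays. The median difference over all genes was 0.11, and 16 of 16 probe sets for 18S and 25S ribosomal RNA had lower means in the deletion arrays, with a median difference of -3.09. The part of the ribosomal RNA signal and of scaling in the results below was not tested, except through the alternative scalings. Centring each array on its median lowered every difference by 0.15.

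Of the 10 TCA cycle genes, 9 rose and 1, the aconitase gene ACO1, fell in the deletion strain (limma, Benjamini-Hochberg adjusted p under 0.05 over all genes). Over all genes, 39.6% were called higher and 19.8% lower. The median difference of the 10 was 0.50, against 0.11 for all genes. The rises ran from 1.14-fold for IDH2 to 2.24-fold for KGD2, and ACO1 was 1.32-fold lower. Only KGD2 of the 10 rose at least 2-fold, as did 8.33% of all genes. After array centring 6 rose and 1 fell, where 27.2% of all genes were called higher and 33.1% lower. After quantile normalization 8 rose and 1 fell, beside 24.9% of all genes higher and 35.5% lower. IDH2, LSC1 and LSC2 were the members that lost their call under centring, and LSC2 under quantile normalization. In RNA from whole cultures, a change in level per cell and a change in the share of cells carrying the message cannot be told apart.

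**Figure D1:**
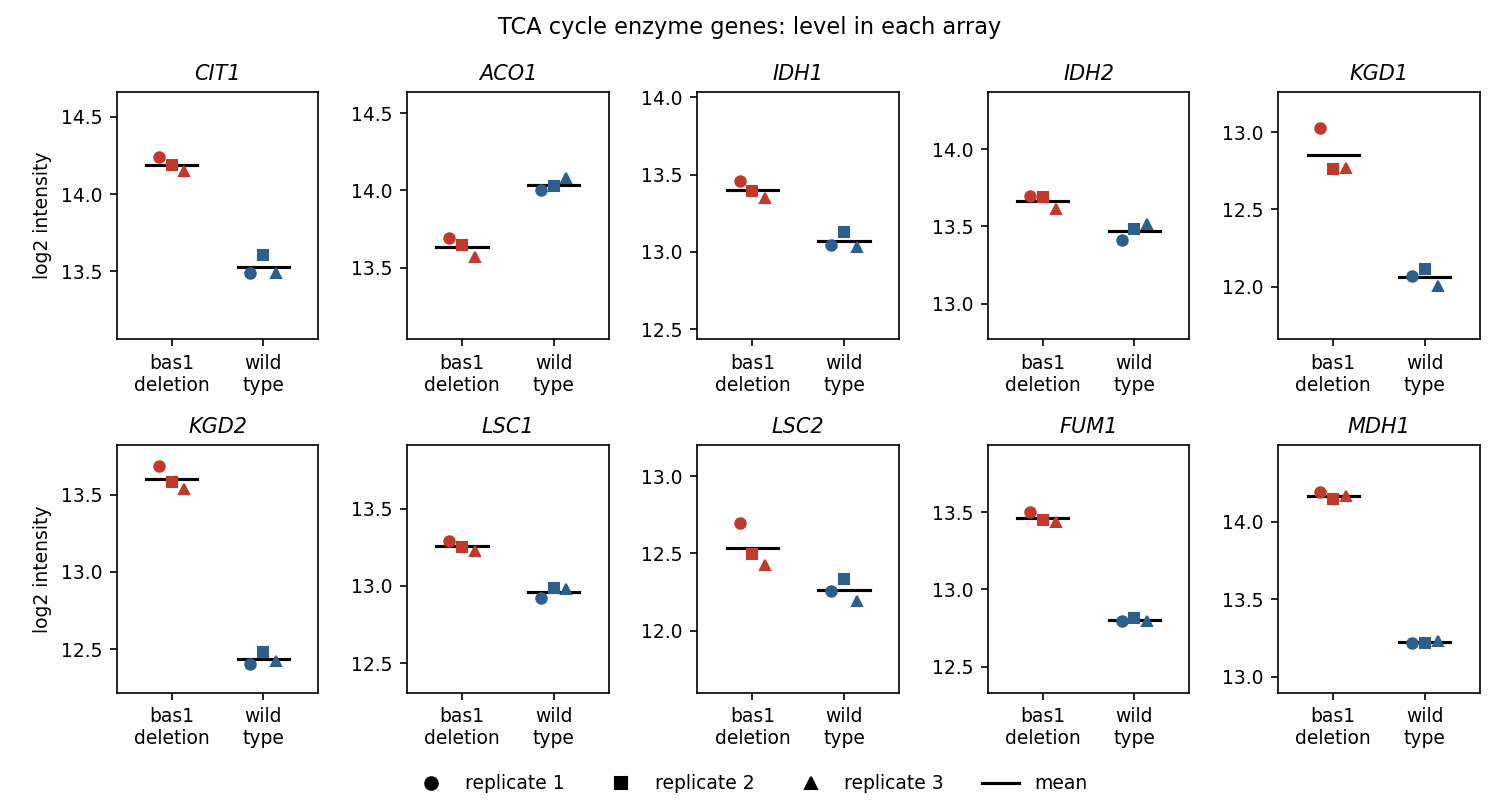
Log2 intensity of the 10 TCA cycle genes in each array, with the 3 bas1 deletion arrays left and the 3 wild-type arrays right in each panel. Every panel spans the same log2 range, bars are means, and marker shapes are replicate numbers. In 9 panels the deletion points lie above the wild-type points, and for ACO1 they lie below.

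CIT1 (YNR001C) encodes mitochondrial citrate synthase, which joins acetyl-CoA and oxaloacetate. It read 14.24, 14.19 and 14.15 in the deletion arrays, against 13.49, 13.61 and 13.49 in the wild-type arrays. The strains did not overlap, and the difference was 0.66 (limma standard error 0.055, adjusted p = 1.3e-04), or 1.58-fold higher.

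ACO1 (YLR304C) encodes aconitase, the iron-sulfur enzyme that converts citrate to isocitrate. It was the member that moved the other way, at 13.69, 13.65 and 13.57 in the deletion arrays, against 14.00, 14.03 and 14.08 in the wild-type arrays. All 3 deletion values lay at least 0.31 below the lowest wild-type value. The difference was -0.40 (standard error 0.052, limma adjusted p = 9.2e-04), and 8.22% of all genes had a lower one. It remained negative under every alternative run, between -0.56 and -0.33. The call ended in 1 of them, the arrays with low poly-A spike controls, which set 1 deletion array against 2 wild-type arrays (-0.33, adjusted p = 0.0561).

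The fall of ACO1 between its neighbours in the pathway can be read within each array, where scaling by a constant cancels. ACO1 minus CIT1 was -0.55, -0.54 and -0.58 in the deletion arrays, against 0.51, 0.42 and 0.59 in the wild-type arrays, a change of -1.06. ACO1 minus IDH1 was 0.23, 0.25 and 0.22 in the deletion arrays and 0.96, 0.90 and 1.05 in the wild-type arrays, a change of -0.73. After quantile normalization, which does not scale by a constant, that change was -0.62. Neither overlapped between strains, which was certain beforehand, since ACO1 fell and CIT1 and IDH1 rose, each without overlap. An exact two-sided permutation test therefore had to give p = 0.1 for each, the smallest that 3 against 3 arrays allow. The exact permutation test also gave p = 0.1 after adjustment over these 2 pairs, which were chosen after the values were seen. Neither the separation nor this test adds to the results of the single genes.

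IDH1 and IDH2 encode the regulatory and the catalytic subunit of the NAD-dependent isocitrate dehydrogenase, which makes 2-oxoglutarate. IDH1 (YNL037C) read 13.46, 13.40 and 13.35 in the deletion arrays and 13.04, 13.13 and 13.03 in the wild-type arrays. IDH2 (YOR136W) read 13.69, 13.69 and 13.61 in the deletion arrays and 13.41, 13.49 and 13.52 in the wild-type arrays. Both rose without overlap, IDH1 by 0.33 (standard error 0.053, limma adjusted p = 0.0023) and IDH2 by 0.19 (standard error 0.051, limma adjusted p = 0.0174). For IDH2 the gap between the strains was 0.095, the difference was 0.038 after array centring (adjusted p = 0.607), and the call also ended without deletion replicate 1 (adjusted p = 0.0547), deletion replicate 2 (0.0556) or wild-type replicate 1 (0.0627).

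KGD1 and KGD2 encode the dehydrogenase and the succinyltransferase of the 2-oxoglutarate dehydrogenase complex, which releases carbon dioxide and yields succinyl-CoA. KGD2 (YDR148C) read 13.68, 13.58 and 13.53 in the deletion arrays, against 12.40, 12.48 and 12.43 in the wild-type arrays. KGD1 (YIL125W) read 13.03, 12.76 and 12.77 in the deletion arrays, against 12.07, 12.12 and 12.01 in the wild-type arrays. KGD2 had the widest gap between strains among the 10 genes, 1.05, and KGD1 followed its direction with 1 deletion array above the other 2. The differences were 1.16 for KGD2 (standard error 0.056, limma adjusted p = 1.6e-05) and 0.79 for KGD1 (standard error 0.084, limma adjusted p = 4.0e-04, 1.73-fold), and KGD2 ranked 362 among the 5449 genes from the highest difference down.

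LSC1 and LSC2 encode the alpha and beta subunits of succinyl-CoA ligase, which makes succinate and ATP. LSC1 (YOR142W) read 13.29, 13.25 and 13.22 in the deletion arrays and 12.92, 12.99 and 12.98 in the wild-type arrays. LSC2 (YGR244C) read 12.69, 12.49 and 12.43 in the deletion arrays and 12.26, 12.33 and 12.19 in the wild-type arrays. Both rose without overlap and by similar amounts, 0.29 for LSC1 (standard error 0.046, limma adjusted p = 0.0021) and 0.28 for LSC2 (standard error 0.082, limma adjusted p = 0.0267). The LSC1 call ended after array centring (0.14, adjusted p = 0.0643). LSC2 lost its call after array centring (0.12, adjusted p = 0.258), quantile normalization (0.14, adjusted p = 0.2) and cyclic loess (0.22, adjusted p = 0.0745). It also lost it without deletion replicate 2 (adjusted p = 0.0528), wild-type replicate 1 (0.0693) or wild-type replicate 3 (0.0723).

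FUM1 (YPL262W) encodes fumarase, which hydrates fumarate to malate and acts in mitochondria and cytosol. It read 13.50, 13.45 and 13.43 in the deletion arrays, against 12.80, 12.81 and 12.80 in the wild-type arrays. MDH1 (YKL085W) encodes the mitochondrial malate dehydrogenase, which closes the cycle at oxaloacetate. It read 14.19, 14.15 and 14.17 in the deletion arrays and 13.22, 13.22 and 13.23 in the wild-type arrays. These were the 2 members with the least spread among wild-type arrays, with SDs of 0.0086 for FUM1 and 0.0049 for MDH1. FUM1 rose by 0.66 (standard error 0.043, limma adjusted p = 4.9e-05) and MDH1 by 0.95 (standard error 0.041, limma adjusted p = 1.2e-05, 1.93-fold).

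**Figure D2:**
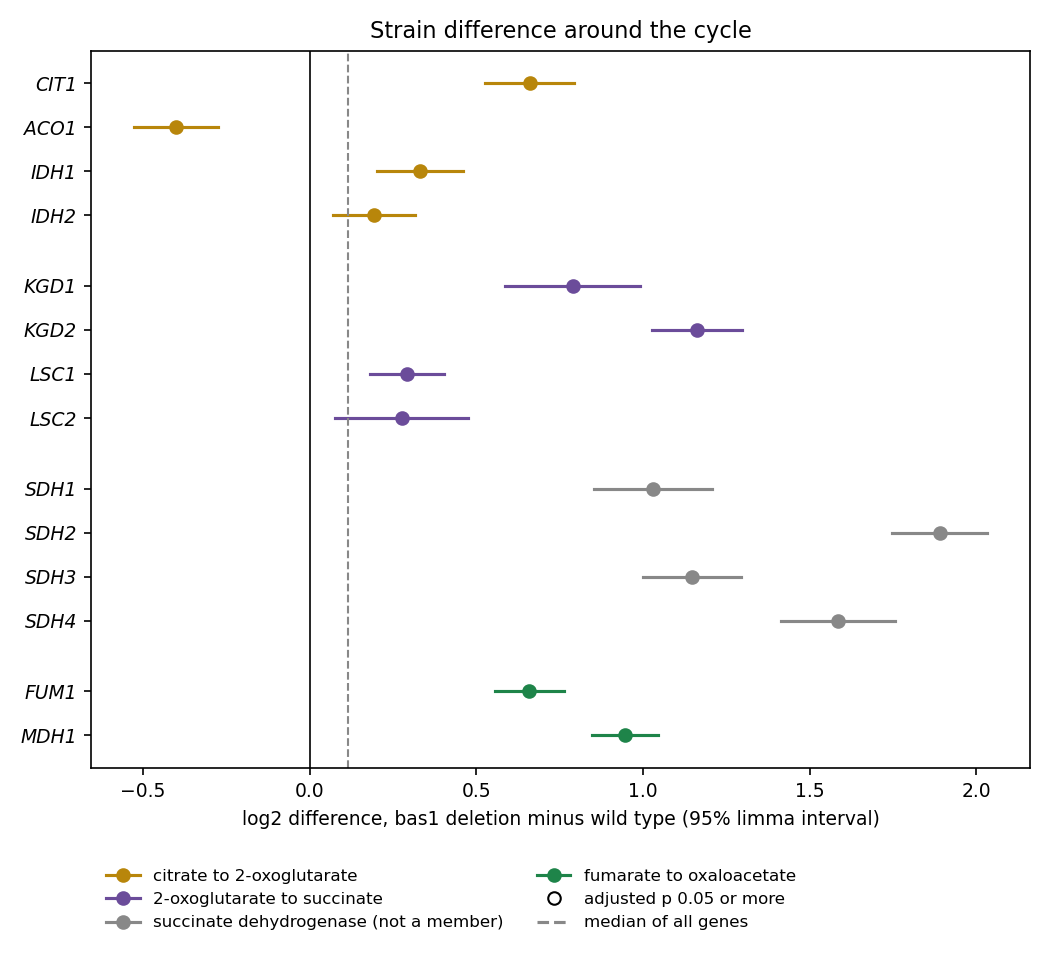
Log2 difference between strains (deletion minus wild type) for the 10 TCA cycle genes in cycle order, with the 4 succinate dehydrogenase genes, which are no members, in grey. Lines are 95% limma intervals, the solid line is 0 and the dashed line is the median of all genes, 0.11. ACO1 lies left of 0, and IDH2 and LSC2 are the 2 members whose intervals span the dashed line.

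Around the cycle the rises were uneven. The 4 genes from citrate to 2-oxoglutarate had differences from -0.40 to 0.66 with a median of 0.26, and the 6 genes from 2-oxoglutarate to oxaloacetate had differences from 0.28 to 1.16 with a median of 0.72. The difference between the 2 stretches was not tested. The 95% interval lay above the median of all genes for 7 members, below it for ACO1, and across it for IDH2 (0.069 to 0.32) and LSC2 (0.078 to 0.48).

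Subunits of the same enzyme were compared within each array. KGD2 minus KGD1 was 0.65, 0.82 and 0.76 in the deletion arrays and 0.33, 0.37 and 0.42 in the wild-type arrays, so KGD2 gained 0.37 on KGD1. IDH1 minus IDH2 was -0.24, -0.29 and -0.27 in the deletion arrays and -0.37, -0.36 and -0.48 in the wild-type arrays, so IDH1 gained 0.14 on IDH2, or 0.067 after quantile normalization. LSC1 minus LSC2 was 0.60, 0.76 and 0.80 in the deletion arrays and 0.66, 0.65 and 0.79 in the wild-type arrays, a change of 0.015. The first 2 pairs did not overlap between strains and the LSC pair did. Exact two-sided permutation tests gave p = 0.1 for KGD and for IDH and p = 0.9 for LSC, or 0.15, 0.15 and 0.9 adjusted over the 3 pairs, where 3 against 3 arrays cannot go below 0.1.

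All 10 members had strains that did not overlap, 9 with the deletion higher and 1 with it lower. Over all genes, 43.7% had every deletion array above every wild-type array and 23.7% had the reverse. Deletion replicate 1 was the highest of the 3 deletion arrays in all 10 members, ACO1 included, as it was in 24.7% of all genes. That array is the deletion array with low signal of the poly-A spike control probe sets. Among the low-spike arrays (1 deletion, 2 wild type) the differences of the members ran from -0.33 to 1.24, and among the high-spike arrays (2 deletion, 1 wild type) from -0.47 to 1.13. All 10 kept their direction in both sets. Which members passed the test differed between the sets, and each such fit assumes that a single array varies like the others.

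Succinate dehydrogenase, which carries the cycle's step from succinate to fumarate and is complex II of the respiratory chain, was read beside the members. All 4 of its subunit genes rose, beside 39.6% of all genes. SDH1, the flavoprotein gene, averaged 13.08 ± 0.13 in the deletion arrays and 12.05 ± 0.038 in the wild-type arrays (SD, n = 3 each). SDH4, for a membrane anchor subunit, averaged 13.64 ± 0.11 in the deletion arrays and 12.06 ± 0.061 in the wild-type arrays (SD, n = 3 each), a difference of 1.58. The 4 differences ran from 1.03 for SDH1 to 1.89 for the iron-sulfur subunit gene SDH2, with SDH3, the other anchor gene, at 1.15, so that KGD2 was the member that lay within this range and the other 9 lay below it. The difference between SDH and the members was not tested.

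Among 6 measured genes for SDH assembly factors and SDH homologs, 4 rose and none fell on the deposited scale. On that scale 39.6% of all genes were called higher and 19.8% lower. SHH4, a homolog of SDH4, differed by -0.042 (limma adjusted p = 0.696) and was called lower after quantile normalization (-0.42) and cyclic loess (-0.31). SDH8, an assembly factor gene, rose 2.41-fold and SDH5, whose product adds the flavin to Sdh1, 2.01-fold. SDH6, of iron-sulfur assembly, rose 4.02-fold with wide spread, at 10.70, 10.37 and 11.40 in the deletion arrays and 8.99, 9.54 and 7.91 in the wild-type arrays. SHH3, a homolog of SDH3, was at background in wild type and was at least 3.56-fold higher.

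Isoenzymes carry the same reactions in other places or with other cofactors. Of 7 measured isoenzyme genes, 4 rose and none fell, with a median difference of 0.83, or 0.41 after quantile normalization. Calls over all genes were 39.6% higher and 19.8% lower. MDH2, the cytosolic malate dehydrogenase of gluconeogenesis, read 11.75, 11.44 and 11.54 in the deletion arrays and 9.73, 9.92 and 9.57 in the wild-type arrays. That was 3.57-fold higher (difference 1.84, standard error 0.12, limma adjusted p = 4.4e-05). CIT3, a minor mitochondrial citrate synthase gene, rose 2.26-fold, IDP2, the cytosolic NADP-dependent isocitrate dehydrogenase gene, 2.09-fold, and IDP3, its peroxisomal counterpart, 1.78-fold. After quantile normalization the difference of CIT3 was 0.41, against 1.18, and that of IDP3 was 0.50, against 0.83.

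The other 3 did not pass the test. CIT2, the peroxisomal citrate synthase gene and a standard readout of Rtg1 and Rtg3, read 14.09, 14.20 and 14.12 in the deletion arrays and 14.00, 14.06 and 14.09 in the wild-type arrays. Its strains overlapped, and its difference was 0.084 with a 95% interval from -0.045 to 0.21 (limma adjusted p = 0.216), -0.071 after array centring. IDP1, the mitochondrial NADP-dependent isocitrate dehydrogenase gene, differed by 0.087 (interval -0.055 to 0.23, limma adjusted p = 0.24), or -0.067 after array centring. MDH3, of peroxisomes, differed by 0.26 (interval 0.019 to 0.50, limma adjusted p = 0.0622). It was called higher without wild-type replicate 3 (0.32, limma adjusted p = 0.0457), with array weights (0.35, 0.0186) and with the replicate number as a block (0.0322). It was not called after array centring (0.11, limma adjusted p = 0.385) or quantile normalization (0.14, 0.243).

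**Figure D3:**
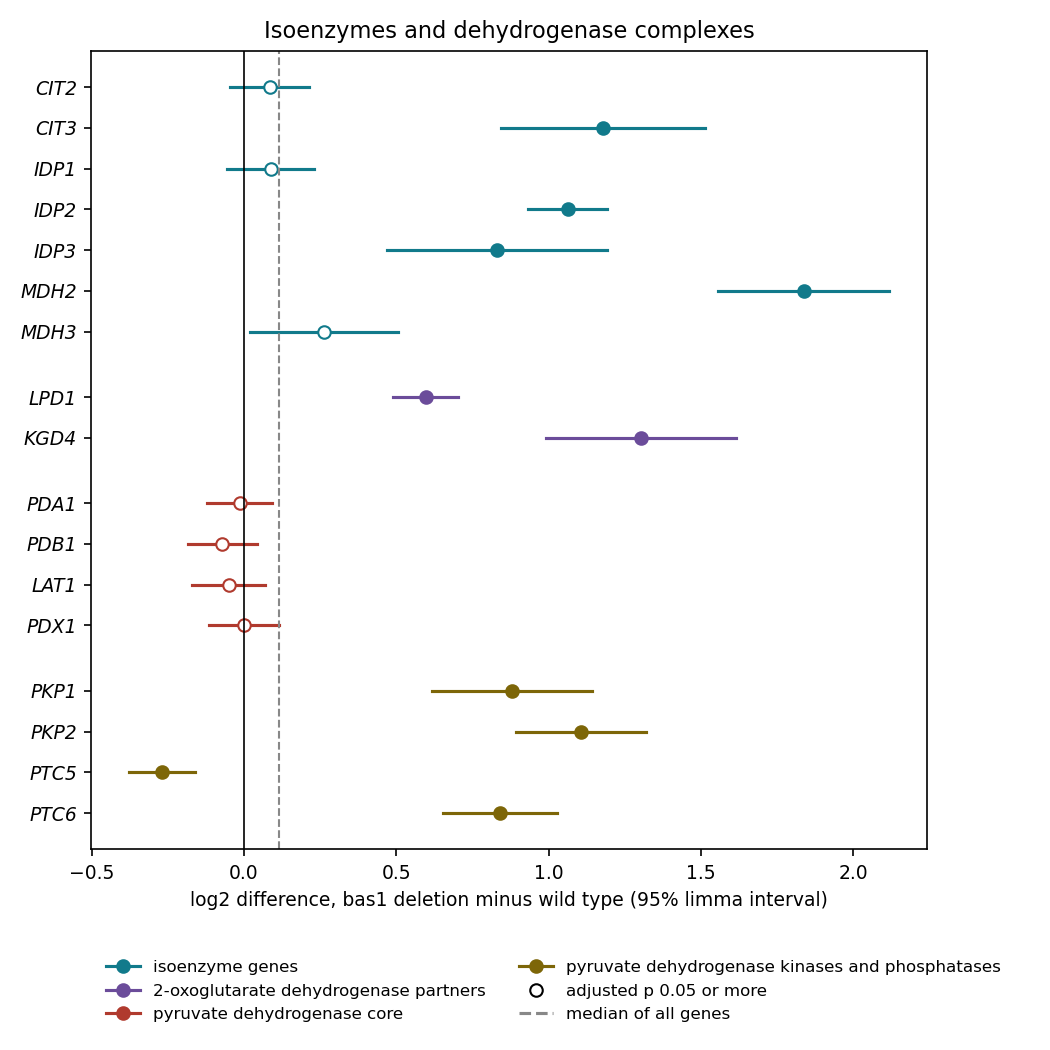
Log2 difference between strains (deletion minus wild type) for isoenzyme genes of the cycle and for genes of the 2-oxoglutarate and pyruvate dehydrogenase complexes. Lines are 95% limma intervals, open points did not pass an adjusted p of 0.05, and the dashed line is the median of all genes, 0.11. The 4 pyruvate dehydrogenase core genes lie between -0.071 and 0.00098, where PDA1 and PDX1 turn sign under other scalings and PDA1, PDB1 and LAT1 are called lower after array centring, while KGD4 lies at 1.30.

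The 2-oxoglutarate and pyruvate dehydrogenase complexes share the lipoamide dehydrogenase Lpd1. Of 10 genes of these complexes and their regulation outside the members, 5 rose and 1 fell. After array centring 5 were higher and 4 lower, and after quantile normalization 5 were higher and 2 lower. The shares of all genes were 39.6% higher and 19.8% lower as deposited. They were 27.2% and 33.1% after array centring, and 24.9% and 35.5% after quantile normalization. KGD4, whose product links Lpd1 to the 2-oxoglutarate dehydrogenase core, read 13.25, 13.08 and 13.23 in the deletion arrays and 11.93, 12.10 and 11.61 in the wild-type arrays. It rose 2.47-fold and LPD1 rose 1.51-fold, so KGD1, KGD2, KGD4 and LPD1, which together make up that complex, were all higher.

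The pyruvate dehydrogenase core genes, named after their values were seen, did not pass the test on the deposited scale, and 3 of the 4 were called lower after array centring. PDA1 and PDB1, for the alpha and beta subunits of the dehydrogenase, differed by -0.015 (interval -0.12 to 0.092) and -0.071 (interval -0.18 to 0.042). LAT1, the acetyltransferase gene, differed by -0.050 (interval -0.17 to 0.069), and PDX1, for the protein that binds Lpd1 to that complex, by 0.00098 (interval -0.11 to 0.12). After array centring PDA1 was at -0.17 (adjusted p = 0.0278), PDB1 at -0.23 (adjusted p = 0.0135), LAT1 at -0.21 (adjusted p = 0.0239) and PDX1 at -0.15 (adjusted p = 0.0568). PDB1 was also called lower after quantile normalization, at -0.16 (adjusted p = 0.0367). PKP1 and PKP2, for kinases that inactivate pyruvate dehydrogenase, rose 1.84-fold and 2.15-fold. Of the phosphatase genes that reverse this, PTC6 rose 1.79-fold and PTC5 fell by 0.27 on the log2 scale, with a difference of -0.46 after quantile normalization.

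Among 15 genes for reactions that feed or leave the cycle, 9 rose and 4 fell, with a median difference of 0.43. After quantile normalization 7 rose and 5 fell, with a median of 0.16. Shares over all genes were 39.6% higher and 19.8% lower, or 24.9% and 35.5% after quantile normalization. GAD1, the glutamate decarboxylase gene, rose 2.57-fold and UGA2, the succinate semialdehyde dehydrogenase gene, 2.13-fold. Both act in the GABA shunt, a bypass that returns glutamate carbon to succinate. ICL2, a mitochondrial 2-methylisocitrate lyase gene, rose 1.75-fold. The 4 that fell were DAL7, a malate synthase gene, at 2.70-fold lower, ICL1, the isocitrate lyase gene of the glyoxylate cycle, at 1.30-fold lower, MAE1, the malic enzyme gene, at 1.21-fold lower, and AAT1, the mitochondrial aspartate aminotransferase gene, at 1.18-fold lower. The AAT1 call ended without deletion replicate 1 (adjusted p = 0.0528) or 3 (0.0603), and the MAE1 call without deletion replicate 1 (0.0546), deletion replicate 3 (0.081) or wild-type replicate 1 (0.0536). ICL1 was -0.63 after quantile normalization, against -0.38.

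Among 16 regulator genes, 9 rose and 1 fell, with 6 and 2 after quantile normalization. For all genes the shares were 39.6% higher and 19.8% lower, or 24.9% and 35.5% after quantile normalization. HAP4, which encodes the activation subunit of the Hap complex, read 12.76, 12.78 and 12.74 in the deletion arrays and 12.18, 12.25 and 12.19 in the wild-type arrays, 1.47-fold higher (limma adjusted p = 1.1e-04). The genes of the other 3 subunits rose as well, HAP3 2.13-fold, HAP5 1.54-fold and HAP2 1.28-fold. The HAP2 call held on the deposited scale alone among the scalings, with differences of 0.20 after array centring (adjusted p = 0.0566), 0.12 after quantile normalization (0.214) and 0.17 after cyclic loess (0.11). HAP5 was 0.38 after quantile normalization, against 0.63. HAP1, a haem-responsive activator gene, differed by 0.15 (limma adjusted p = 0.073). It was called higher without wild-type replicate 3 (0.20, limma adjusted p = 0.0277) and with array weights (0.16, 0.0346). It was not called after array centring (-0.0062, limma adjusted p = 0.944) or quantile normalization (0.040, 0.607).

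RTG3 rose 1.29-fold, RTG2 differed by 0.080 (limma adjusted p = 0.244), and RTG1 differed by 0.0047 (adjusted p = 0.965). RTG3 lost its call after quantile normalization (0.12, adjusted p = 0.195) and after cyclic loess (0.18, adjusted p = 0.0572). RTG1 was lower after quantile normalization, at -0.41 (adjusted p = 0.0056), and after cyclic loess, at -0.29 (adjusted p = 0.0258). SIP4, CAT8 and ADR1, for activators of genes used without glucose, rose 2.48-fold, 2.13-fold and 2.08-fold, and MIG1, for a repressor that acts in glucose, fell 1.22-fold. The SIP4 difference was 0.40 after quantile normalization, against 1.31, and that of MIG1 was -0.44 after array centring, against -0.29.

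Of 5 genes outside the cycle that Rtg1 and Rtg3 are known to control, 3 rose and 1 fell. This stands beside 39.6% of all genes called higher and 19.8% lower. Array centring and quantile normalization each left 2 of the 5 higher and 1 lower. Shares of all genes were 27.2% higher and 33.1% lower after array centring, and 24.9% and 35.5% after quantile normalization. CRC1, for a mitochondrial carnitine carrier, rose 3.78-fold, ACS1, an acetyl-CoA synthetase gene, 2.68-fold and PYC1, a pyruvate carboxylase gene, 1.15-fold. PYC1 lost its call after array centring (0.053, adjusted p = 0.479), after quantile normalization (0.16, adjusted p = 0.0761), and without deletion replicate 2 (0.0664), deletion replicate 3 (0.0554) or wild-type replicate 1 (0.0729). CRC1 was 1.20 after quantile normalization, against 1.92. DLD3, for a cytosolic 2-hydroxyglutarate transhydrogenase, fell 1.49-fold, and CIT2 was the uncalled member described above.

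**Figure D4:**
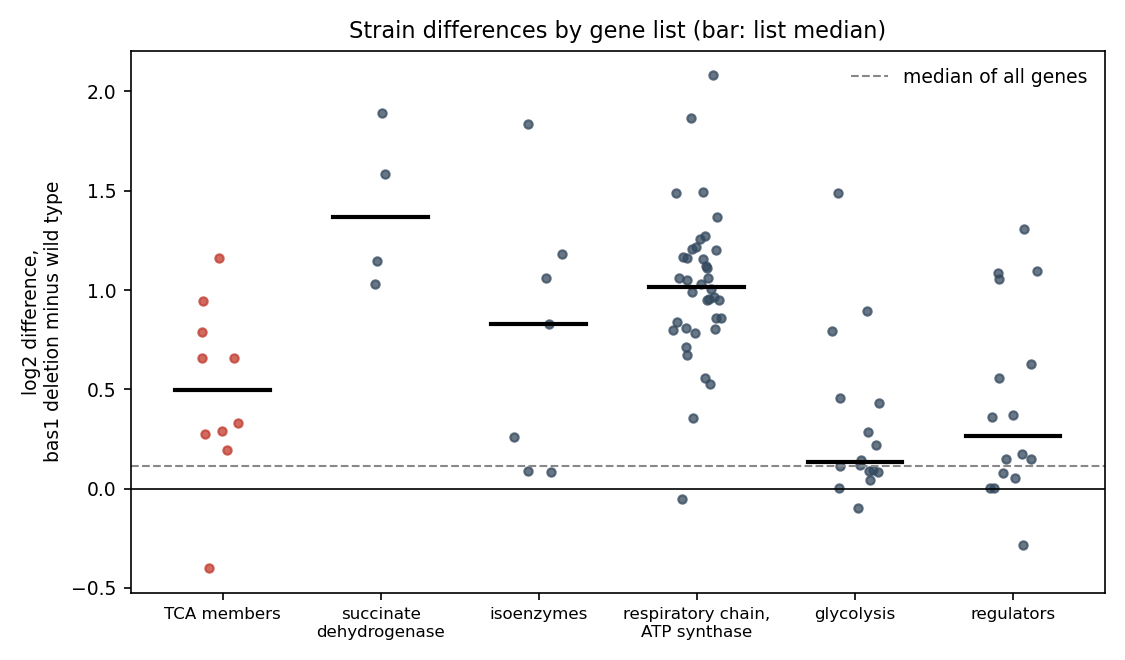
Log2 difference between strains (deletion minus wild type) for each measured gene of 6 lists, with a bar at each list median and a dashed line at the median of all genes, 0.11. The TCA median of 0.50 lies between those of glycolysis (0.13, or -0.022 after array centring) and of the respiratory chain and ATP synthase (1.02), and the succinate dehydrogenase median is 1.37.

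Read beside the routes before and after the cycle, the TCA genes lay in between. Of 38 measured respiratory chain and ATP synthase genes 34 rose and none fell, with a median of 1.02. NDE2, an external NADH dehydrogenase gene, rose 4.23-fold, a difference of 2.08 that was 1.35 after quantile normalization. Of 16 measured glycolytic genes 9 rose and none fell, with a median of 0.13, against 0.11 for all genes. On the deposited scale 39.6% of all genes were called higher and 19.8% lower. After array centring 4 glycolytic genes rose, beside 27.2% of all genes. Their median was then -0.022, against -0.040 for all genes. TDH1, for the minor glyceraldehyde-3-phosphate dehydrogenase, rose most at 2.81-fold. Several glycolytic genes lay close to the highest value of any probe set, 15.16, with a deletion mean of 15.13 for the brightest. Whether such brightness narrowed their differences was not tested. Differences between these lists were not tested. Genes that mark mating type moved on the same arrays: all 4 genes specific to alpha cells were called higher (3 after array centring, and 2 after quantile normalization, where MF(ALPHA)2 was called lower at -0.56), and of 7 specific to a cells 1 rose and 1 fell. Their part in the TCA results was not tested.

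**Figure D5:**
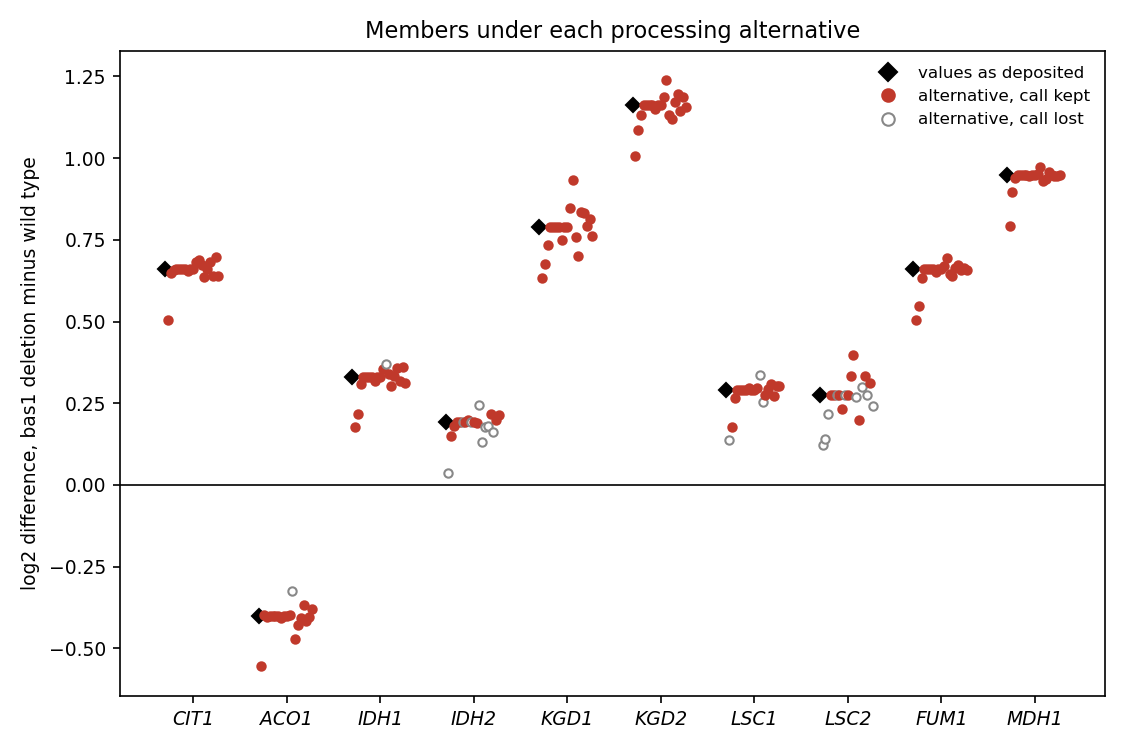
Log2 difference between strains (deletion minus wild type) for each TCA cycle gene under each of 19 processing alternatives, with the value as deposited as a black diamond. Filled circles kept the call and open circles lost it. ACO1 stays below 0 and the other 9 genes above it, with open circles for ACO1, IDH1, IDH2, LSC1 and LSC2.

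Across the 19 alternatives, CIT1, KGD1, KGD2, FUM1 and MDH1 kept their call in each. CIT1 ran from 0.50 to 0.70, KGD1 from 0.63 to 0.93, KGD2 from 1.01 to 1.24, FUM1 from 0.50 to 0.70 and MDH1 from 0.79 to 0.97. IDH2 lost its call in 8 alternatives, LSC2 in 9, LSC1 in 3, and ACO1 and IDH1 in 1 each, with no change of direction.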

How the data were processed

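Total RNA of 6 samples was biotin-labelled for Affymetrix arrays. Values were deposited as linear intensities per probe set. They were made with RMA from the affy package in R 2.8.0, per the submitters' processing notes. This method corrects background, normalizes arrays to each other and combines probes. The deposited arrays nevertheless did not share a distribution. Deletion arrays had log2 medians between 8.47 and 8.65 over their probe sets, and wild-type arrays between 7.81 and 7.89. Background percentiles were lower in deletion arrays (5.73 to 6.12) than in wild-type arrays (6.22 to 6.60). The cause of this mismatch was not tested. Log2 of the deposited values was taken here. Through RefSeq's S. cerevisiae table, 5498 of the 10928 probe sets were assigned to a single gene. Each gene was represented by its brightest probe set on average, which gave 5449 genes; the 10 members had 1 probe set each. The strain difference was fitted by limma (version 3.58.1, under R 4.3.3) with strain as the sole factor, p-values were adjusted over the 5449 genes by Benjamini-Hochberg, and the threshold was 0.05. The script was tested on simulated data. Where a strain lay under background, the fold is a lower bound. It sets the brighter strain against the highest of 3 values per array: the measured value, that array's background percentile, and the same percentile over array means (6.09). The number of arrays limits the precision.

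Genes named outside the members are the 4 SDH genes, isoenzymes, Hap and Rtg genes, up to 4 called genes per list with the largest change, and called genes that went against their list. LPD1, RIP1, SHH4, the pyruvate dehydrogenase core genes, LYS4, LEU1 and TIS11 were named outside this rule. The members and lists were chosen with earlier results of these data known. Sequences were not used here.

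The titles number replicates 1 to 3 in each strain. Deviations of same-numbered arrays from their strain means correlated at 0.44, -0.51 and -0.44, so the numbers were not taken to pair the samples. No 2 arrays held identical values. Alternatives were other scalings (array centring, quantile, cyclic loess), probe set rules, filters, variance models, array weights, a stricter threshold of 0.01, the replicate number or the spike level as a block, each spike level alone, and leaving out each replicate.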

Additional observations from a re-analysis of the deposited data

How the results depend on the processing

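The BAS1 difference kept its direction and call in all 19 alternatives, from -6.57 to -6.21, and from -6.33 to -6.22 with 1 array left out. Counts of raised TCA genes were 9 as deposited, 6 after array centring and 8 after quantile normalization or cyclic loess. They were 7 with all probe sets of the array or at the 0.01 threshold, and 7 to 9 with 1 array left out. Which members passed differed between the spike levels, where 1 strain has a single array. The count of lowered genes was 1, and 0 in the low-spike arrays alone. With the replicate block, which does not rest on a shown pairing, 9 rose and 1 fell, with adjusted p = 0.0483 for IDH2 and 0.0082 for ACO1. Over all genes, 2160 were higher and 1081 lower, against 1803 lower after array centring, 1356 higher and 1935 lower after quantile normalization, 679 lower at the 0.01 threshold, 1102 higher and 491 lower in the low-spike arrays, and 614 lower in the high-spike arrays. IDH1 gained 0.067 on IDH2 after quantile normalization, against 0.14. With 1 array left out, the KGD balance changed by 0.34 to 0.42, the IDH balance by 0.098 to 0.16, and the LSC balance by -0.025 to 0.076.

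Of the genes below that turned sign, MF(ALPHA)2 had passed the test. PDX1 was -0.15 after array centring and after quantile normalization, -0.089 after cyclic loess, -0.0033 with array weights, -0.056 in the high-spike arrays, and -0.018 to 0.026 with 1 array left out. PDA1 was 0.0080 after quantile normalization, 0.00092 with array weights and -0.034 to 0.0056 with 1 array left out. RTG1 was -0.15 after array centring, -0.41 after quantile normalization, -0.29 after cyclic loess, -0.049 with array weights, -0.12 in the low-spike arrays, and -0.056 to 0.065 with 1 array left out. RTG2 was -0.074 after array centring and -0.029 after quantile normalization. After array centring CIT2 was -0.071, IDP1 -0.067 and HAP1 -0.0062. SHH4 was 0.096 in the high-spike arrays and -0.11 to 0.016 with 1 array left out. MF(ALPHA)2, called higher on the deposited scale, was called lower after quantile normalization, at -0.56. The causes were not tested. Motifs in promoters were not analysed here.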

Other observations

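ACO1 belongs to a family of iron-sulfur hydratases that also holds LYS4, the homoaconitase gene of lysine synthesis, and LEU1, the isopropylmalate isomerase gene of leucine synthesis. These genes, and TIS11 below, were chosen after the values were seen. LYS4 read 12.63, 12.75 and 12.64 in the deletion arrays and 12.86, 12.76 and 12.90 in the wild-type arrays. LEU1 read 13.74, 13.85 and 13.73 in the deletion arrays and 13.90, 13.89 and 14.04 in the wild-type arrays. Neither overlapped between strains, and neither passed the test on the deposited scale, with differences of -0.17 for LYS4 (95% interval -0.31 to -0.022, limma adjusted p = 0.0507) and -0.17 for LEU1 (interval -0.33 to -0.022, limma adjusted p = 0.0513). Over all genes, 23.7% had every deletion array below every wild-type array. After array centring, ACO1, LYS4 and LEU1 were all 3 called lower, as were 33.1% of all genes. LYS4 was also called lower after quantile normalization (-0.29), beside 35.5% of all genes. It was called lower after cyclic loess as well (-0.20), beside 1601 of the 5449 genes.

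TIS11, also known as CTH2, encodes a protein known to promote decay of messages for iron-using proteins when iron is scarce. It read 9.48, 9.52 and 9.49 in the deletion arrays and 7.86, 8.03 and 7.72 in the wild-type arrays, 3.09-fold higher (difference 1.63, standard error 0.083, limma adjusted p = 1.9e-05), or a difference of 0.98 after quantile normalization. TIS11 was the only gene of the iron response that was read. SDH2 and RIP1, which encode iron-sulfur proteins of the respiratory chain, rose on the same arrays, RIP1 by 2.58-fold, beside 39.6% of all genes. RIP1 was named outside the rule given above. No relation between TIS11 and ACO1 was tested.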
